A study of Mus musculus with 6 samples.

Results

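Ovaries of OHSS mice given nintedanib were compared with ovaries of untreated OHSS mice, across all expressed genes. The comparison rests on the libraries that the sample titles name as OHSS with nintedanib (2 libraries) and OHSS (2 libraries), which are 4 of the 6 RNA sequencing libraries of the series. OHSS stands for ovarian hyperstimulation syndrome, modelled here in mice of the outbred ICR strain. The other 2 libraries are labelled COH, an abbreviation left unexplained in the labels, and they enter only through the shared estimate of the spread and as reference values. All animals were ICR mice and the whole ovary was sampled. The labels give no genotype, age, hormone schedule, drug dose, route or time, and they do not say whether a library holds 1 animal or a pool. Whether the libraries within a group are separate animals is not stated, so a p-value here speaks only to the variation among these libraries, and that may be technical.

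In ovarian hyperstimulation, follicles and corpora lutea enlarge and vascular endothelial growth factor (VEGF) from their steroid-making cells opens the vessels around them. Nintedanib is an inhibitor of the receptor tyrosine kinases for VEGF, platelet-derived growth factor (PDGF) and fibroblast growth factor (FGF), and it also binds some kinases of the SRC family. It acts on kinase activity, and transcript levels can record only what follows from that.

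The 4 libraries held between 28498435 and 32390829 counts, and mitochondrial transcripts took 6.80 and 7.10% of counts in OHSS against 5.88 and 5.72% with nintedanib. Levels are given as CPM, the count relative to a library total scaled by TMM, in the order replicate 1 and replicate 2, and every fold change is log2 of nintedanib over OHSS with its standard error (SE) from the edgeR fit. Markers of the main ovarian cells were present in each of the 4 libraries, among them Inha of granulosa cells, Cyp11a1 of steroid-making cells, Gdf9 of oocytes and Cdh5 of endothelium. In bulk tissue, fewer cells of a type and less RNA per cell cannot be told apart. The 2 nintedanib libraries lay further from each other than 1 of them lay from OHSS. The median absolute log2 difference over the 19027 genes tested was 0.265 between the nintedanib libraries, 0.259 between the OHSS libraries, and 0.231 between nintedanib replicate 1 and OHSS replicate 1. Nintedanib replicate 2 was the most distant, at 0.288 and 0.315 from the OHSS libraries.

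Rpsa-ps10 rose with nintedanib and was the 1 gene of 19027 with a Benjamini-Hochberg adjusted p under 0.05 in edgeR's quasi-likelihood test, the threshold for a call here (0.00526% of genes). Rpsa-ps10 (ENSMUSG00000047676) is annotated as a processed pseudogene of Rpsa, the gene for a protein of the small ribosomal subunit. It stood at 8.78 and 5.81 CPM in OHSS and 346 and 374 CPM with nintedanib, and at 11 and 11.9 CPM in COH. Both nintedanib libraries were far above the other 4, with a difference of 5.62 on the log2 scale (SE 0.243, adjusted p = 0.0241 in edgeR and 0.00876 in limma voom). The pseudogene transcript matches Rpsa at 879 of 885 aligned bases, so reads of the pair are hard to separate and its level is uncertain. Rpsa itself stood at 904 and 726 CPM in OHSS and 623 and 615 CPM with nintedanib, -0.40 (SE 0.143) on the log2 scale, which was no call, and -0.25 without OHSS replicate 1. Summed over Rpsa and its 7 tested near copies, the level was 920.1 and 738 CPM in OHSS and 982 and 1004 CPM with nintedanib. The call was lost without nintedanib replicate 2 (edgeR adjusted p = 0.0661), COH replicate 1 (0.316) or COH replicate 2 (0.265), within a range over all settings of 7.79e-120 with DESeq2 to 0.316, while the log2 fold change stayed between 5.36 and 5.93.

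At an unadjusted p under 0.05 edgeR had 1412 genes (7.42%), of which 751 were higher (3.95%) and 661 lower (3.47%) with nintedanib. With libraries scaled by total count alone the split was 1099 higher and 455 lower, as that scaling moves the median of all genes to 0.08 from 0.01. For 36.2% of genes the 2 groups had no overlap, 19.2% with nintedanib higher and 16.9% with nintedanib lower. Means were higher with nintedanib for 51.5% of genes and lower for 48.5%. DESeq2, whose Wald test takes its estimate of the spread as known, called 213 genes (1.12%), 108 higher and 105 lower (0.568 and 0.552%). The count for limma voom was 1. Genes given from here on did not pass edgeR's test over all genes, and their values are differences between means, with the counts of the other tools beside them.

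**Figure D1:**
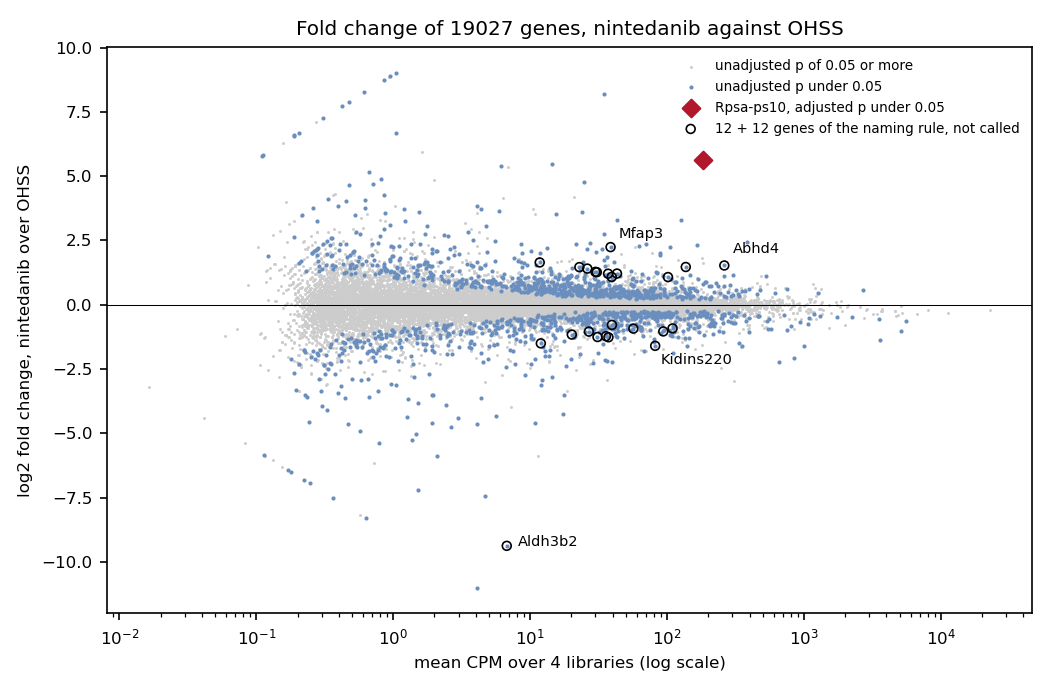
Each point is 1 of the 19027 genes tested, with its mean CPM over the 4 libraries on a log axis and its log2 fold change of nintedanib over OHSS. Rpsa-ps10, at 5.62, is the 1 gene past the adjusted threshold, and the open circles are the 24 other genes of the naming rule.

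Several of the genes named by rule as higher with nintedanib kept the 2 libraries of each group close together. The rule favoured this, as it required no overlap between groups and took the smallest unadjusted p. Abhd4, a lipase that makes precursors of N-acylethanolamines, stood at 139 and 130.1 CPM in OHSS and 434 and 343 CPM with nintedanib, and at 125 and 134 CPM in COH. Both nintedanib libraries lay above all 4 others, with a log2 fold change of 1.53 (SE 0.144, adjusted p = 0.193 in edgeR). Mfap3, a microfibril-associated protein, had 14.2 and 12.7 CPM in OHSS and 63.9 and 63.7 CPM with nintedanib, a log2 fold change of 2.24 (SE 0.314). Thbs4, a thrombospondin of the extracellular matrix, had 64.4 and 66.2 CPM against 135 and 141 CPM, a log2 fold change of 1.08 (SE 0.144). In both the nintedanib pair stood apart from the OHSS pair by more than the spread within either, the pattern that the rule picks. Serpina5, an inhibitor of serine proteases, and Fabp3, a fatty acid carrier, differed by 1.21 (SE 0.159) and 1.08 (SE 0.149).

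Some of the genes higher than in OHSS were at the level of COH. Helz, a zinc finger helicase, stood at 24.1 and 27.8 CPM in OHSS, 57.5 and 62.9 CPM with nintedanib and 57.5 and 52.9 CPM in COH. Krr1, a factor of ribosome assembly, had 19.9 and 16.1 CPM in OHSS, 43.9 and 42.8 CPM with nintedanib and 46.6 and 47.1 CPM in COH. Taf5l, a subunit of a histone acetylase complex, had 9.999 and 14.4 CPM in OHSS, 32.3 and 34.9 CPM with nintedanib and 37.1 and 38.7 CPM in COH. Taf5l shares 686 of 689 aligned bases with Gm13316, so its level is less certain. For these genes the OHSS pair was the one that stood low. The log2 fold changes were 1.21 (SE 0.127) for Helz, 1.27 (SE 0.14) for Krr1 and 1.46 (SE 0.198) for Taf5l. Ttc4, an HSP90 co-chaperone, and Rpl30, a ribosomal protein gene, had 1.28 (SE 0.152) and 1.47 (SE 0.189).

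Among the genes lower with nintedanib, Aldh3b2 was nearly absent. Aldh3b2, an aldehyde dehydrogenase, stood at 14.9 and 12 CPM in OHSS and 10.3 and 8.93 CPM in COH, and at 0 and 0.0312 CPM with nintedanib. Taking 2 counts as 1 read pair, that is 415 pairs in OHSS against 1 pair with nintedanib, a ratio of 412 with a 95% exact Poisson interval of 73.5 to 16299 for counting error only. Its edgeR adjusted p was 0.0538 with the low-count filter (range over the settings 2.64e-08 with DESeq2 to 0.414). Kidins220, a scaffold of neurotrophin receptors, had 121 and 125 CPM in OHSS and 44.3 and 37.2 CPM with nintedanib, a log2 fold change of -1.60 (SE 0.122, adjusted p = 0.172 in edgeR). For Kidins220 COH was near OHSS, at 115 and 109 CPM, and the nintedanib pair was the one that stood apart.

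C3, the central protein of complement, stood at 71 and 77.6 CPM in OHSS and 37.6 and 40.6 CPM with nintedanib, a log2 fold change of -0.93 (SE 0.108). Cdip1, a p53 target, had 134 and 152 CPM in OHSS, 73.4 and 78.4 CPM with nintedanib and 73.6 and 71.3 CPM in COH, with a log2 fold change of -0.92 (SE 0.109). Epn2, an endocytic adaptor, Mid1, a microtubule-bound ubiquitin ligase, and Rsrc1, a splicing factor, differed by -1.26 (SE 0.179), -1.22 (SE 0.177) and -1.04 (SE 0.153). Cpxm2, a carboxypeptidase-like protein, and Etfrf1, a regulator of electron transfer flavoprotein, differed by -1.50 (SE 0.219) and -0.78 (SE 0.116). Mid1 shares 718 of 719 aligned bases with the pseudogene Mid1-ps1, and the annotated gene body of Cpxm2 lies within that of Fgfr2 on the same strand, so both are uncertain. DESeq2 called all 24 genes of the naming rule (1.12% of all genes), and edgeR and limma voom called 0 of them. The rule took these 24 from genes that edgeR did not call, by the smallest unadjusted p in these same counts. The edgeR count was thus fixed by the rule, and the DESeq2 count is no separate evidence.

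Raver1 and Rnf26 each appear under 2 identifiers that overlap on the same strand and had fold changes of opposite sign. For Raver1, an RNA-binding protein, ENSMUSG00000111497 had a log2 fold change of 1.41 (SE 0.125) and ENSMUSG00000010205 one of -1.04 (SE 0.0943). Their transcripts share 2657 of 2660 aligned bases, and their summed level was 141 and 139.8 CPM in OHSS and 96.9 and 102 CPM with nintedanib. For Rnf26, a ubiquitin ligase, ENSMUSG00000053128 had 1.65 (SE 0.159) and ENSMUSG00000111409 had -4.63 (SE 0.621). The Rnf26 sum was 10.5 and 16.6 CPM in OHSS and 18.3 and 18 CPM with nintedanib. All 4 identifiers are uncertain, since how reads were shared between such models is not given in the sources used here.

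**Figure D2:**
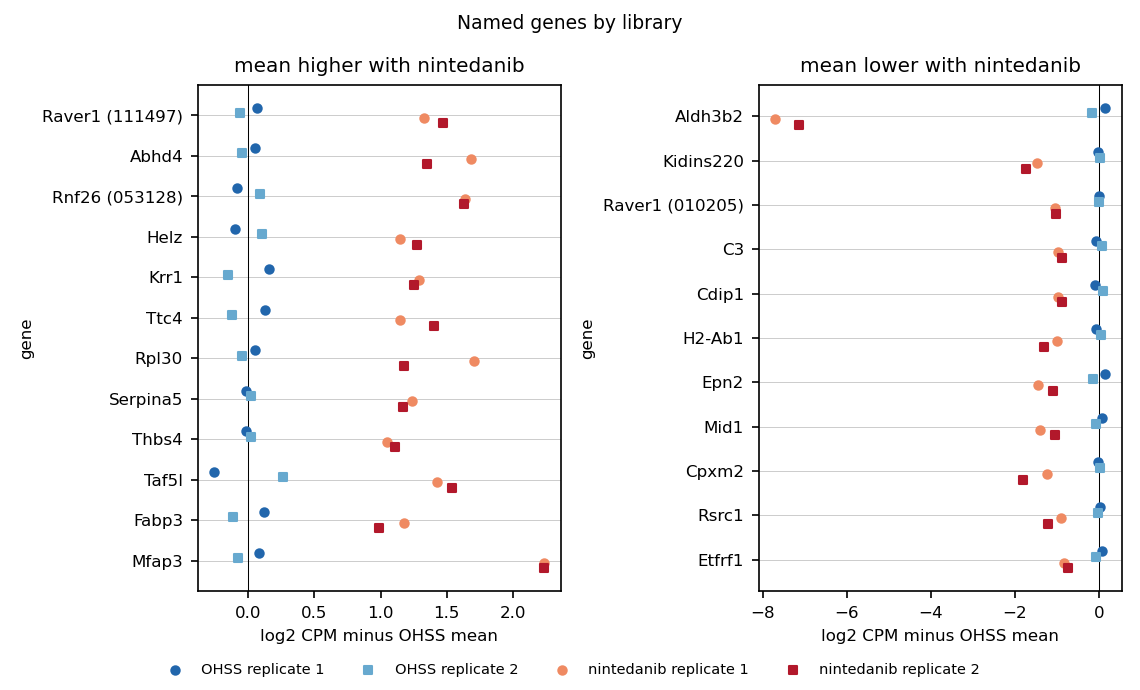
The 12 genes of the naming rule with the higher mean and 11 of the 12 with the lower mean in nintedanib, as log2 CPM of each of the 4 libraries minus the OHSS mean. Both nintedanib libraries lie on the same side of both OHSS libraries for every gene drawn, which the rule required.

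The transcripts of nintedanib's target kinases showed no common direction. Of 14 target kinase genes, 7 had higher and 7 lower means with nintedanib, and the median log2 fold change was 0.03 (all genes 0.01). Of the 14, 1 was past an unadjusted p under 0.05 in edgeR (7.42% of all genes). The 2 nintedanib libraries went opposite ways, with medians of 0.19 and -0.18 over the OHSS mean, and the median fold change was -0.20 without replicate 1 and 0.18 without replicate 2. Kdr, the main VEGF receptor, stood at 85.9 and 76.4 CPM in OHSS and 103 and 91.3 CPM with nintedanib, a log2 fold change of 0.26 (SE 0.131, adjusted p = 0.709 in edgeR). Flt1, the decoy-like VEGF receptor, had 50.2 and 42.5 against 57.5 and 48.3 CPM, and Flt4, the receptor for VEGF-C and VEGF-D, had 38.7 and 46.6 against 56.1 and 48 CPM. The log2 fold changes were 0.19 (SE 0.146) and 0.29 (SE 0.142), and the OHSS and nintedanib ranges overlapped for Flt1 and not for Kdr or Flt4. Leaving out nintedanib replicate 1 gave 0.17 for Kdr and 0.06 for Flt1, and leaving out OHSS replicate 1 gave 0.14 for Flt4.

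The receptors for PDGF and FGF had fold changes below 0, and none was past an unadjusted p under 0.05. Pdgfra stood at 225 and 179 CPM in OHSS and 175 and 166 CPM with nintedanib, with the nintedanib pair lower, a log2 fold change of -0.24 (SE 0.16) and -0.09 without OHSS replicate 1. Pdgfrb had 171 and 237 against 211 and 139 CPM (-0.22, SE 0.248), with the groups overlapping, and turned to 0.04 without OHSS replicate 2 and 0.05 without nintedanib replicate 2. Fgfr1 had 75.7 and 56 against 57.7 and 68.9 CPM (-0.06, SE 0.183), and Fgfr2 had 99.8 and 56.3 against 68.6 and 51.6 CPM (-0.38, SE 0.295, and 0.08 without OHSS replicate 1). Fgfr3 had 9.999 and 8.61 against 6.97 and 5.55 CPM (-0.57, SE 0.463), and the sign of Fgfr1 turned to 0.02 with scaling by total count alone. Csf1r, the macrophage growth factor receptor and also a target of the drug, was the member past the unadjusted threshold (7.42% of all genes). It stood at 59.4 and 54.2 CPM in OHSS and 45.5 and 36.3 CPM with nintedanib (-0.47, SE 0.143, edgeR adjusted p = 0.653). Src, a cytoplasmic kinase, had 58.3 and 33.9 against 65.7 and 60.2 CPM.

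The ligands gave a median log2 fold change of 0.16 over 21 genes of VEGF, PDGF, FGF and angiopoietin signalling, with 13 higher and 8 lower. Without nintedanib replicate 2 it was 0.05 with 11 higher and 10 lower. Vegfa, the VEGF ligand most tied to the syndrome, stood at 167 and 111 CPM in OHSS and 134 and 121 CPM with nintedanib. The nintedanib libraries lay between the OHSS libraries, and the log2 fold change was -0.13 (SE 0.211, adjusted p = 0.908 in edgeR) and 0.18 without OHSS replicate 1. Fgf7, an FGF of stromal cells, had 8.74 and 4.42 against 3.02 and 3.68 CPM (-0.97, SE 0.374, and -0.42 without OHSS replicate 1). Tie1 and Tek, the endothelial receptor pair of the angiopoietins, had the smallest p in the list. Tek stood at 34.1 and 36.8 CPM in OHSS and 47.9 and 45.4 CPM with nintedanib (0.40, SE 0.109), and Tie1 is given with the endothelial markers.

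Feedback genes that ERK signalling switches on downstream of these receptors had a median of -0.01 over 15 genes, with 7 higher and 8 lower, and 0.06 with scaling by total count alone. Dusp6, a phosphatase that ERK induces against itself, stood at 94 and 62.7 CPM in OHSS and 62 and 44.3 CPM with nintedanib, a log2 fold change of -0.56 (SE 0.25, adjusted p = 0.695 in edgeR). Spred2, an inhibitor of RAS signalling, had 43.9 and 46.9 against 38 and 35.5 CPM (-0.30, SE 0.121). It was the 1 member past the unadjusted threshold (7.42% of all genes). Both nintedanib libraries were below both OHSS libraries for these genes, although for Dusp6 nintedanib replicate 1 and OHSS replicate 2 nearly met and the fold change was -0.26 without OHSS replicate 1.

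Endothelial cell markers had higher means with nintedanib for 17 of 19 genes (51.5% of all genes), with a median log2 fold change of 0.28. The median stood 0.23 above the OHSS mean in nintedanib replicate 1 and 0.20 above it in replicate 2, and lay between 0.19 and 0.28 with each library left out. In COH it stood 0.25 and 0.27 above the OHSS mean, so OHSS was the low pair for this list. Groups did not overlap for 11 of the 19, all with nintedanib higher (19.2% of all genes). Cdh5, the cadherin of endothelial junctions, stood at 121 and 135 CPM in OHSS, 178 and 207 CPM with nintedanib and 143 and 161 CPM in COH. Its log2 fold change was 0.59 (SE 0.129, adjusted p = 0.638 in edgeR), and both nintedanib libraries exceeded all others. Tie1 had 51 and 54 CPM in OHSS and 69.9 and 75 CPM with nintedanib (0.47, SE 0.101). It was the 1 marker called by DESeq2 (0.568% of all genes called higher).

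Vwf, the clotting factor stored in endothelium, stood at 7.62 and 6.7 CPM in OHSS and 12.8 and 21.6 CPM with nintedanib (1.26, SE 0.333, and 0.84 without nintedanib replicate 2). Icam2, an endothelial adhesion molecule, and Cldn5, the claudin of endothelial tight junctions, differed by 0.60 (SE 0.198, and 0.36 without nintedanib replicate 2) and 0.36 (SE 0.121). Those 3 together with Cdh5 and Tie1 were the 5 markers past an unadjusted p under 0.05, all higher (3.95% of all genes). Pecam1, a general endothelial marker, had 74.3 and 112 against 106 and 98.8 CPM, with the nintedanib libraries between the OHSS libraries (0.14, SE 0.202, and -0.15 without OHSS replicate 1). The summed CPM of the 19 markers was 958 and 976 in OHSS, 1131 and 1133 with nintedanib and 1103 and 1124 in COH.

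Vessel barrier genes had differences of both signs, with 10 of 15 higher and a median of 0.10 that was 0.00 without OHSS replicate 1. Nos3, the endothelial nitric oxide synthase, stood at 33.5 and 32.9 CPM in OHSS and 41.8 and 51.9 CPM with nintedanib (0.50, SE 0.136). Gja5, an arterial gap junction protein, had 5.3 and 6.5 against 11.9 and 10.1 CPM (0.89, SE 0.219), and S1pr1, the sphingosine phosphate receptor that tightens endothelial junctions, had 73.3 and 95 against 53.7 and 37.1 CPM (-0.89, SE 0.22). S1pr1 was thus lower and Gja5 and Nos3 higher in both nintedanib libraries. Endothelial tip and Notch genes had 10 of 14 higher, a median of 0.22 and 0 past the unadjusted threshold (7.42% of all genes). Lymphatic endothelial and pericyte markers had medians of -0.01 over 7 and -0.05 over 14 genes, both above 0 with scaling by total count alone. Kcnj8, a potassium channel of pericytes, was the 1 pericyte marker of 14 past the unadjusted threshold (7.42% of all genes). It stood at 18.2 and 20.4 CPM in OHSS and 12.8 and 9.29 CPM with nintedanib (-0.81, SE 0.202).

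**Figure D3:**
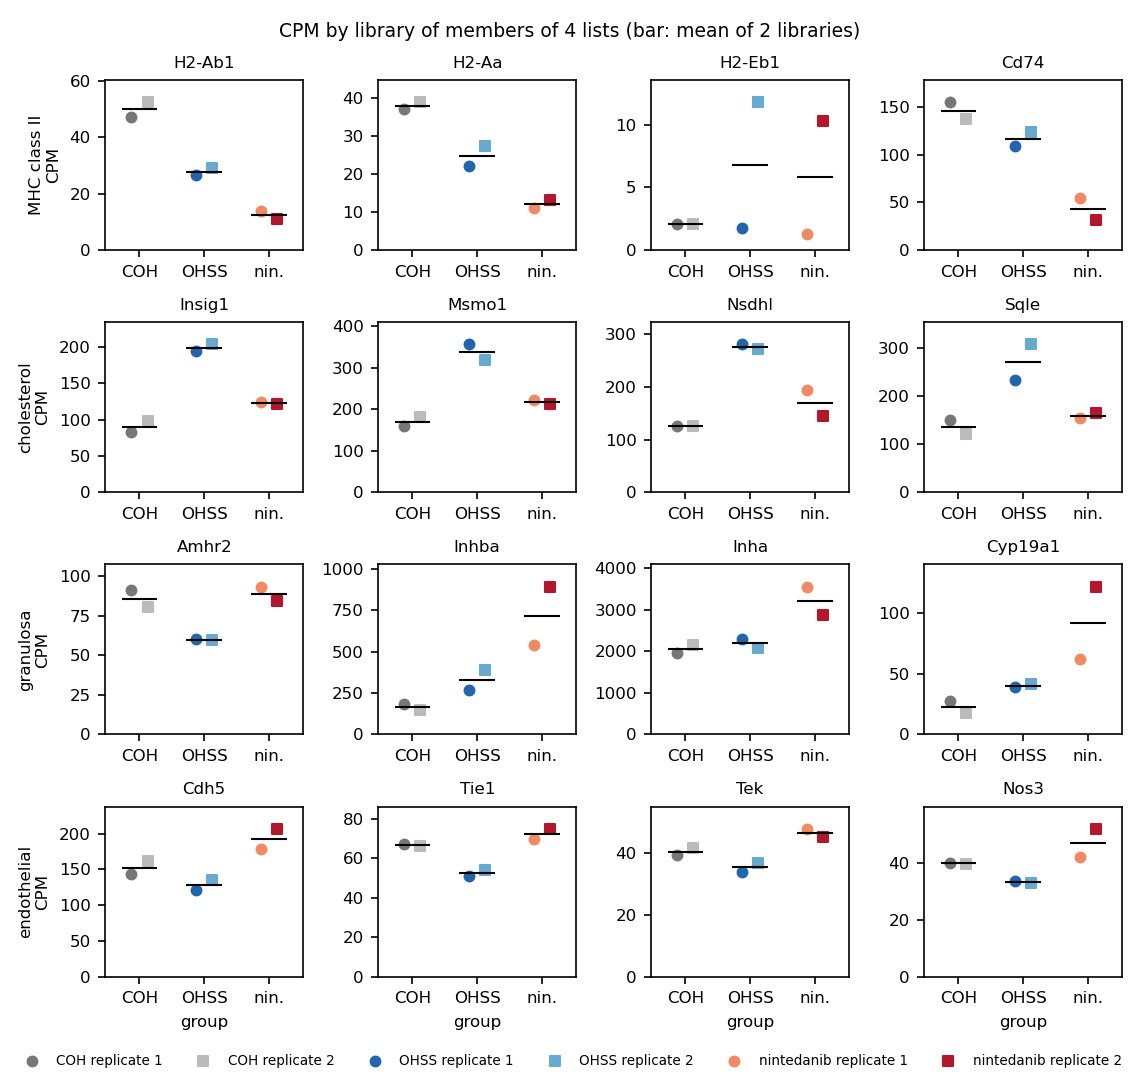
CPM of 4 members each of the MHC class II, cholesterol, granulosa and endothelial lists in all 6 libraries, with the vertical axes starting at 0 and bars at the mean of each group (nin. is nintedanib). H2-Ab1 stands at 26.7 and 28.9 CPM in OHSS and 13.8 and 11.1 CPM with nintedanib, and H2-Eb1 differs between replicates rather than between groups.

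Granulosa cell markers had higher means with nintedanib for 12 of 14 genes, with a median log2 fold change of 0.56. For 10 genes nintedanib lay wholly above OHSS (19.2% of all genes), and for the other 2 it lay wholly below (16.9%), the lowest at -0.59. Granulosa cells surround the oocyte and make oestradiol and inhibins. Amhr2, the receptor for anti-Müllerian hormone, stood at 60.2 and 59.8 CPM in OHSS and 93.4 and 84.3 CPM with nintedanib, near the 91.3 and 80.2 CPM of COH. Its log2 fold change was 0.57 (SE 0.116, adjusted p = 0.625 in edgeR), and DESeq2 called it. Inhba, the activin and inhibin beta A subunit, had 271 and 389.5 CPM in OHSS, 539 and 894 CPM with nintedanib and 186 and 145 CPM in COH (1.12, SE 0.309). Inha, the inhibin alpha subunit, had 2293 and 2087 against 3558 and 2879 CPM (0.56, SE 0.158).

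Cyp19a1, the aromatase that makes oestrogens, stood at 39 and 41.5 CPM in OHSS and 62.1 and 122 CPM with nintedanib, a log2 fold change of 1.19 (SE 0.366, adjusted p = 0.653 in edgeR). Fst, the activin-binding follistatin, had 68.6 and 99.5 against 133 and 209.7 CPM (1.03, SE 0.3), and Nr5a2, a nuclear receptor of granulosa and luteal cells, had 164 and 228 against 314 and 344 CPM (0.75, SE 0.185). Nintedanib replicate 2 was the higher of its pair for Cyp19a1, Inhba and Fst, and the lower for Inha and Amhr2. Without it the fold changes were 0.63 for Cyp19a1, 0.71 for Inhba and 0.66 for Fst. In all, 7 granulosa markers were past an unadjusted p under 0.05, all higher (3.95% of all genes), and 0 had an adjusted p under 0.05 in edgeR or limma voom. The list median was 0.41 in nintedanib replicate 1 and 0.50 in replicate 2 over the OHSS mean, and lay between 0.40 and 0.56 with each library left out.

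Luteal markers had lower means for 9 of 11 genes, with a median log2 fold change of -0.31 (-0.33 and -0.50 in the nintedanib libraries over the OHSS mean), and -0.51 without nintedanib replicate 1. Luteal cells arise from granulosa and theca cells after ovulation and make progesterone. Sfrp4, a secreted WNT antagonist of the corpus luteum, stood at 4928 and 8746 CPM in OHSS and 3633 and 3088 CPM with nintedanib (-1.02, SE 0.296). Runx2, a transcription factor of luteinising cells, had 212 and 316 against 171 and 161 CPM (-0.67, SE 0.202). Cyp11a1, which starts steroid synthesis, had 12309 and 12574 against 11269 and 8771 CPM (-0.31, SE 0.186, and -0.14 without nintedanib replicate 2), and Lhcgr, the luteinizing hormone receptor, had 531 and 686 against 653 and 358 CPM. Lhcgr differed by -0.27 (SE 0.337), and by 0.10 without nintedanib replicate 2. Sfrp4 and Runx2 were lower in both nintedanib libraries, while OHSS replicate 2 was the higher of its pair for both, and their log2 fold changes without it were -0.55 and -0.35.

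Steroid synthesis genes had 8 of 18 higher and a median of -0.04, which became 0.03 with scaling by total count alone. The OHSS libraries moved it more, to 0.26 with 13 of 18 higher without replicate 1 and -0.27 with 6 of 18 higher without replicate 2. Star, which carries cholesterol into mitochondria, had 2722 and 1396 CPM in OHSS and 1484 and 1968 CPM with nintedanib, so that the nintedanib pair lay within the OHSS range (-0.25, SE 0.333, and 0.29 without OHSS replicate 1). Cyp17a1, with which theca cells form androgens, had 1230.5 and 865 against 2464 and 734 CPM (0.61, SE 0.641, and -0.52 without nintedanib replicate 1). Its 2 nintedanib libraries lay on either side of the OHSS pair. Insl3, a theca peptide hormone whose gene overlaps Jak3, had 16.5 and 15.5 against 78.5 and 34.5 CPM (1.82, SE 0.731), and 1.11 without nintedanib replicate 1. Dcn, a stromal proteoglycan, had 937 and 436 against 353 and 398 CPM (-0.87, SE 0.364), with -0.24 without OHSS replicate 1 and -1.32 without OHSS replicate 2.

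Pgr, the progesterone receptor needed for ovulation, stood at 15.9 and 14.2 CPM in OHSS, 5.76 and 6.17 CPM with nintedanib and 3.04 and 4.1 CPM in COH. The nintedanib pair lay below the OHSS pair, with a log2 fold change of -1.33 (SE 0.218, adjusted p = 0.469 in edgeR), and DESeq2 called it. Ptx3, which stabilises the matrix around the ovulating oocyte, had 1.29 and 1.58 CPM in OHSS and 4.02 and 3.09 CPM with nintedanib (1.31, SE 0.31). Adamts1, a protease of the ovulating follicle, had 40.3 and 43.8 against 49.2 and 90.9 CPM (0.74, SE 0.289), with 0.23 without nintedanib replicate 2 and 1.11 without replicate 1. Cebpb, a transcription factor that luteinizing hormone induces, had 149 and 121 against 172 and 171 CPM (0.35, SE 0.134, and 0.21 without OHSS replicate 2). Over 15 ovulation and cumulus genes 11 were higher with a median of 0.35, which was -0.21 without nintedanib replicate 2. Snap25, a vesicle fusion protein, was the other gene of the list that DESeq2 called (0.552% of all genes lower), at 0.707 and 6.67 CPM in OHSS against 0.173 and 0.125 CPM (-4.60, SE 1.26). OHSS replicate 2 was its high library (-2.22 without it).

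Cholesterol synthesis and uptake genes had lower means with nintedanib for 23 of 24 genes (48.5% of all genes), with a median log2 fold change of -0.39. Steroid-making cells use cholesterol for hormones, and the transcription factor SREBP2 drives this pathway when sterols run low. The groups did not overlap for 15 of the 24, all with nintedanib lower (16.9% of all genes), and 12 were past an unadjusted p under 0.05, all lower (3.47%). Insig1, which holds SREBP in the endoplasmic reticulum, stood at 194 and 204 CPM in OHSS, 124 and 121 CPM with nintedanib and 82.9 and 97.7 CPM in COH. Its log2 fold change was -0.70 (SE 0.115, adjusted p = 0.475 in edgeR), and the nintedanib pair lay between the OHSS and COH pairs.

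Msmo1, which removes methyl groups from sterol precursors, had 356 and 319 CPM in OHSS and 223 and 214 CPM with nintedanib (-0.63, SE 0.116). Sqle, the squalene epoxidase, had 235 and 308 against 154 and 164 CPM (-0.77, SE 0.179), and Nsdhl, a sterol dehydrogenase, had 280.4 and 271 against 195 and 145 CPM (-0.70, SE 0.157). In each of these the nintedanib pair was wholly below the OHSS pair. Lss, the lanosterol synthase, had 323 and 191 against 135 and 90.2 CPM (-1.19, SE 0.319, and -0.78 without OHSS replicate 1), and Idi1, an isomerase of isoprenoid precursors, differed by -0.57 (SE 0.139). DESeq2 called 5 members, Insig1, Msmo1, Nsdhl, Sqle and Lss, all lower (0.552% of all genes), and edgeR and limma voom called 0. The list median stood at -0.28 in nintedanib replicate 1 and -0.51 in replicate 2 over the OHSS mean, and the median log2 fold change lay between -0.52 and -0.30 with each library left out. The fatty acid synthesis genes, which a related SREBP drives, had a median of -0.10 over 12 genes, with 0.13 in nintedanib replicate 1 and -0.57 in replicate 2.

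The 250 bases before the start of Hmgcs1, Msmo1 and Ccnb1 are printed because these genes stand for the lists that were lower (cholesterol) and higher (cell cycle). The sequences are RefSeq's on GRCm38.p6 and read 5′ to 3′ on the strand of the gene. Capitals mark TCACNCCAC, a form of the sterol regulatory element, in Hmgcs1, and CCAAT or its reverse complement ATTGG in Msmo1 and Ccnb1.
Hmgcs1, chr13:119690101-119690350, plus strand: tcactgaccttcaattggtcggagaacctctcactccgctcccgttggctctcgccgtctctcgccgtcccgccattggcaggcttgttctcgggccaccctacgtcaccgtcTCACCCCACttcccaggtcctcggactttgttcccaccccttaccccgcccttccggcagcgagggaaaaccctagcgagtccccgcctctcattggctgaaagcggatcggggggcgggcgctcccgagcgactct
Msmo1, chr8:64733579-64733828, minus strand: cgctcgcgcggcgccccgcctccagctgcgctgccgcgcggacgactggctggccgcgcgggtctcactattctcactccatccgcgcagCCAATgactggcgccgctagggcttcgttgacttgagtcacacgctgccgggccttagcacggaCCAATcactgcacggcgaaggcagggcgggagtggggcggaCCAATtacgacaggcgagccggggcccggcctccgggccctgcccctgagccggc
Ccnb1, chr13:100786487-100786736, minus strand: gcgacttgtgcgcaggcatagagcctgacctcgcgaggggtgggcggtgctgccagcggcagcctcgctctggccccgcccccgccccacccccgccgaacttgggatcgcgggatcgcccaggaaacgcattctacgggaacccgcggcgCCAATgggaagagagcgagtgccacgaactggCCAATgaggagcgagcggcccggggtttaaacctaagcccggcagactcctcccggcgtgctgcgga
TCACNCCAC on either strand occurred in 1 of 19 windows of the cholesterol list, that of Hmgcs1, and in 1.053% of 32851 RefSeq windows of the same length. CCAAT on either strand occurred in 16 of the 19 windows (84.21%), in 15 of 17 cell cycle windows (88.24%) and in 33.85% of all windows. TTTGAA or its reverse complement TTCAAA, a form of the cell cycle homology region, occurred in 4 of 17 cell cycle windows (23.53%) and in 15.99% of all windows. The table matched 16 of 24 cholesterol genes and 16 of 19 cell cycle genes. Hmgcs1, an early enzyme of the pathway chosen after its sequence was seen, had 1397 and 1278 CPM in OHSS and 1112 and 963 CPM with nintedanib (-0.37, SE 0.133). A match describes the letters only, and binding was not measured.

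MHC class II genes, which present peptides on dendritic cells, macrophages and B cells, had lower means with nintedanib for 8 of 8 genes, with a median log2 fold change of -0.71. H2-Ab1, the beta chain of the class II molecule A, stood at 26.7 and 28.9 CPM in OHSS, 13.8 and 11.1 CPM with nintedanib and 47.2 and 52.4 CPM in COH. Its log2 fold change was -1.16 (SE 0.155, adjusted p = 0.382 in edgeR). H2-Aa, the partner alpha chain, had 22.2 and 27.5 against 11.2 and 13.3 CPM (-1.02, SE 0.166), and Cd74, the invariant chain, had 109 and 124 against 54.7 and 31.4 CPM (-1.44, SE 0.273). In all 3 both nintedanib libraries lay well below both OHSS libraries, a gap that naming members by small p favours. Over the list, nintedanib was wholly below OHSS for 6 of the 8 genes (16.9% of all genes). The 3 were the members that DESeq2 called (0.552% of all genes called lower).

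Ciita, the transcription factor that switches class II genes on, had 1.22 and 1.81 CPM in OHSS and 1.08 and 0.873 CPM with nintedanib (-0.64, SE 0.372, and -0.32 without OHSS replicate 2). H2-DMa and H2-DMb1, which load peptides, differed by -0.39 (SE 0.218, and -0.19 without nintedanib replicate 2) and -0.78 (SE 0.372, and -0.33 without OHSS replicate 2). H2-Eb1, named after its values were seen, went by library and not by group, with 1.74 and 11.8 CPM in OHSS, 1.32 and 10.3 CPM with nintedanib and 2.08 and 2.07 CPM in COH. In each of OHSS and nintedanib, replicate 2 was the high library, and the log2 fold change was -0.22 (SE 1.15). Leaving out OHSS replicate 2 gave a list median of -0.33, leaving out OHSS replicate 1 gave -1.09, and it lay between these with each other library left out.

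The 250 bases before the start of H2-Aa are printed as the class II gene that DESeq2 called and RefSeq's table holds, with CCAAT on either strand in capitals.
H2-Aa, chr17:34287824-34288073, minus strand: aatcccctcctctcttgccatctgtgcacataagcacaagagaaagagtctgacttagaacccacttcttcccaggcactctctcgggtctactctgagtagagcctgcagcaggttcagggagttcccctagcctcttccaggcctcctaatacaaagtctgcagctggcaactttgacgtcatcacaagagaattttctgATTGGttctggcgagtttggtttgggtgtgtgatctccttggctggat
Of 6 windows of the class II list, 5 held CCAAT on either strand (83.33%), against 33.85% of all windows, and the table matched 5 of the 8 genes.

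Other immune cell markers gave a mixed picture beside class II. Lyz2, the lysozyme of macrophages and neutrophils, stood at 167 and 137 CPM in OHSS and 82.2 and 50.7 CPM with nintedanib, a log2 fold change of -1.19 (SE 0.249). Cx3cr1, a chemokine receptor of monocytes whose gene overlaps Wdr48 and others, had 3.44 and 3.4 against 16.6 and 11.4 CPM (2.03, SE 0.704). The macrophage and monocyte list had 12 of 15 lower, a median of -0.27 and a summed CPM of 743 and 489.7 in OHSS against 476 and 436 with nintedanib, and the median was 0.11 without OHSS replicate 1. Csf1r and Lyz2 were lower and Cx3cr1 higher in both nintedanib libraries. Neutrophil markers had 5 of 5 lower at sums of 7.07 and 12.1 CPM in OHSS against 7.08 and 4.8 CPM, but without OHSS replicate 2 their median turned from -0.65 to 0.60 with 4 of 5 higher. Lymphocyte markers had 7 of 10 higher at sums of 9.71 and 6.6 against 7.91 and 7.7 CPM, and 5 of 10 higher without OHSS replicate 2. The share of these cells in the class II difference was not tested.

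Cell cycle genes had higher means with nintedanib for 19 of 19 genes, with a median log2 fold change of 0.39. Nintedanib was wholly above OHSS for 13 of them (19.2% of all genes), and 6 were past an unadjusted p under 0.05, all higher (3.95%). Ccnb1, the cyclin of mitotic entry, stood at 20.4 and 20.9 CPM in OHSS, 35.8 and 32 CPM with nintedanib and 26.7 and 25.9 CPM in COH (0.71, SE 0.121, edgeR adjusted p = 0.493). It was the 1 member that DESeq2 called (0.568% of all genes called higher). Mki67, a proliferation marker, had 65.8 and 51.6 against 85.8 and 83.1 CPM (0.52, SE 0.179), and Top2a, a topoisomerase of dividing cells, had 73.6 and 54.4 against 102 and 98.6 CPM (0.65, SE 0.237). OHSS replicate 2 was the lowest library for 18 of the 19 (28.1% of all genes). Without it the median was 0.20, while without OHSS replicate 1 it was 0.64. Mcm6 and Mcm3, of the helicase that starts DNA replication, differed by 0.52 (SE 0.157) and 0.60 (SE 0.211), the latter 0.30 without nintedanib replicate 2.

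Mitochondrial transcripts had lower means for 13 of 13 genes with a median log2 fold change of -0.37, and all 13 had both nintedanib libraries below both OHSS libraries (16.9% of all genes). mt-Nd1, a complex I subunit, stood at 6441 and 7056 CPM in OHSS, 4779.6 and 3881 CPM with nintedanib and 4901 and 5526 CPM in COH (-0.64, SE 0.173). mt-Atp8, a subunit of the ATP synthase, had 1487 and 1486 against 1127 and 1098 CPM (-0.42, SE 0.135). These transcripts share 1 genome and 1 RNA pool, so their members do not vary independently, and their share of counts can also record RNA quality, which was not tested. The nuclear genes of the respiratory chain had a median of -0.01 over 19 genes, with 9 higher, and 0.06 with scaling by total count alone.

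**Figure D4:**
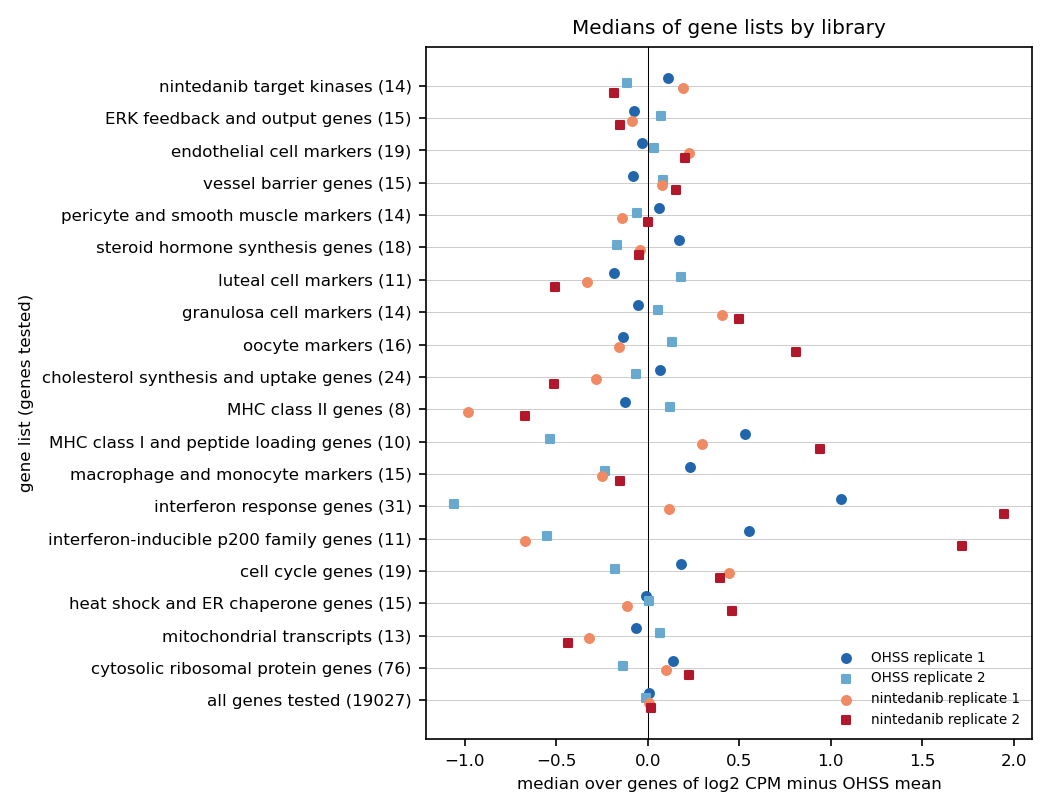
Medians over the genes of 19 lists and over all genes tested, each as log2 CPM of a library minus the OHSS mean, with the number of genes tested in brackets. The granulosa, cholesterol and mitochondrial medians have both nintedanib libraries on the same side, and the interferon median puts nintedanib replicate 2 at 1.95 and replicate 1 at 0.12.

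The interferon response genes set nintedanib replicate 2 and OHSS replicate 2 at opposite ends and did not separate the groups. These genes are induced by interferons and carry antiviral functions. Means were higher with nintedanib for 31 of 31 genes with a median log2 fold change of 0.86, but 0 were past an unadjusted p under 0.05 in edgeR, and edgeR, DESeq2 and limma voom called 0. Nintedanib replicate 2 was the highest of the 4 libraries for 31 of 31 (30.1% of all genes), OHSS replicate 2 the lowest for 31 of 31 (28.1%), and nintedanib replicate 1 lay between the OHSS libraries for 30 of 31 (34.4%). The list medians over the OHSS mean were 1.06 and -1.06 in OHSS and 0.12 and 1.95 with nintedanib, and -2.31 and -2.33 in COH. Without nintedanib replicate 2 the median log2 fold change was -0.40 with 8 of 31 genes higher. Leaving out OHSS libraries moved it as well, to 2.34 with 31 of 31 higher without replicate 1 and 0.13 with 22 of 31 higher without replicate 2.

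Ifit1, an antiviral protein that binds foreign RNA, stood at 136 and 20.4 CPM in OHSS, 44.3 and 515 CPM with nintedanib and 1.6 and 1.82 CPM in COH. Rsad2, the antiviral enzyme viperin, had 37.2 and 3.66 against 14.1 and 177 CPM. In both the largest value was that of nintedanib replicate 2 and the next that of OHSS replicate 1. The log2 fold changes were 1.84 (SE 1.29) and 2.23 (SE 1.47), and without nintedanib replicate 2 they were -0.82 and -0.53. Isg15, a ubiquitin-like protein, had 104 and 11.4 against 37.2 and 175 CPM. Oasl2, an oligoadenylate synthetase relative, was the 1 member whose groups did not overlap, at 147 and 70.1 CPM in OHSS and 173 and 217 CPM with nintedanib (0.85, SE 0.349, and 0.41 without OHSS replicate 2).

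The 250 bases before the starts of Ifit1 and Isg15 show the element that many of these genes share, with GAAA, any 2 bases and GAAA again, or its reverse complement, a form of the interferon-stimulated response element, in capitals. In Isg15 the 3 matches overlap.
Ifit1, chr19:34640639-34640888, plus strand: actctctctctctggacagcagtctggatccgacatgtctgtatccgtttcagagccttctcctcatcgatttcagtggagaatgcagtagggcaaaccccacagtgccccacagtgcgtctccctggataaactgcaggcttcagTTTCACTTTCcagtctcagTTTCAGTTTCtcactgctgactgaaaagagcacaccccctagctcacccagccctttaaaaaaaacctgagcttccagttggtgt
Isg15, chr4:156200819-156201068, minus strand: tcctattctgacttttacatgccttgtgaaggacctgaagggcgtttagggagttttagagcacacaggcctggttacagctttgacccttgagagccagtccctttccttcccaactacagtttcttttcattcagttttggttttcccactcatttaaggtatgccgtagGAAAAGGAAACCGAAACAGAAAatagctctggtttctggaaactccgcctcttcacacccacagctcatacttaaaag
The motif occurred on either strand in 10 of 24 windows of the interferon list (41.67%) and in 2.977% of all windows, and the table matched 21 of the 31 genes.

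Related families were also highest in nintedanib replicate 2. The interferon-inducible p200 family, DNA sensors encoded in 1 cluster with shared sequence, had higher means for 11 of 11 genes. Nintedanib replicate 2 was the highest library for 11 of 11 (30.1% of all genes). Ifi213 had 0.643 and 0 CPM in OHSS and 0.0694 and 26.7 CPM with nintedanib, and Mndal, which overlaps Ifi211 and Ifi203, had 31.3 and 23.1 against 32.8 and 79.1 CPM. Ifi213 is 945 of 983 aligned bases identical to Ifi208 and Mndal 1021 of 1070 to Ifi211, so both levels are uncertain. Over the family the medians were -0.67 and 1.72 in the nintedanib libraries, and without replicate 2 the median log2 fold change was -0.79 with 1 of 11 higher. MHC class I and peptide loading genes had 10 of 10 higher and a median of 0.43. For 8 of them nintedanib replicate 2 was highest (30.1% of all genes), and for 9 OHSS replicate 2 was lowest (28.1%). Nlrc5, the class I transactivator, had 12.5 and 4.88 against 9.68 and 31.5 CPM, and Tapbp, which loads peptides onto class I, had 245 and 144 against 219.7 and 371 CPM.

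**Figure D5:**
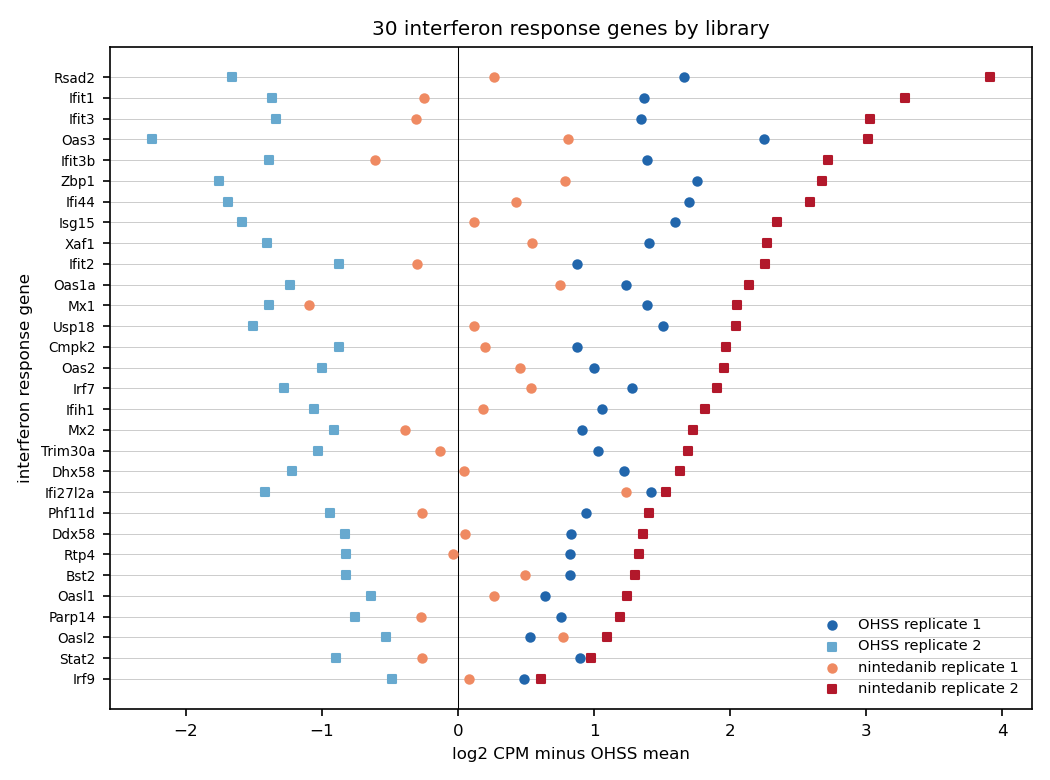
Log2 CPM of 30 of the 31 interferon response genes in each of the 4 libraries minus the OHSS mean of the gene, ordered by nintedanib replicate 2. Replicate 2 of nintedanib is rightmost and replicate 2 of OHSS leftmost for every gene drawn, and the largest values are those of Rsad2 and Ifit1.

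Of the 4 libraries, nintedanib replicate 2 was also the high one for most oocyte markers and for 10 of 15 chaperones (30.1% of all genes). Gdf9, an oocyte growth factor, stood at 34.2 and 40.8 CPM in OHSS and 38.7 and 71.6 CPM with nintedanib, and Nlrp5, a maternal factor of the egg, at 21.2 and 29.1 against 24.4 and 53.1 CPM. Replicate 2 was highest for 15 of 16 oocyte markers, the list medians were -0.16 and 0.81 in the nintedanib libraries, and the median log2 fold change of 0.33 became -0.16 without replicate 2. Hspa1a, an inducible HSP70, had 25.8 and 36.7 against 32.7 and 216 CPM, and its near copy Hspa1b, which shares 2184 of 2201 aligned bases, had 45.7 and 64.6 against 60.8 and 312 CPM. The heat shock and chaperone list had medians of -0.11 and 0.46 in the nintedanib libraries. Fos and Fosb, early response transcription factors, had 29.5 and 40.8 against 58.2 and 228 CPM and 6.14 and 11.3 against 22 and 71 CPM, with replicate 2 again the higher. Their log2 fold changes were 2.02 (SE 0.656) and 2.42 (SE 0.645), and 0.73 and 1.34 without replicate 2. The immediate early list as a whole had 8 of 14 lower, with 3 genes wholly below OHSS (16.9% of all genes) and 4 wholly above (19.2%). Its median was -0.04, with 0.30 without nintedanib replicate 1 and -0.39 without replicate 2. Egr2, a zinc finger factor of the same class, had 5.92 and 8.78 against 2.81 and 4.64 CPM (-0.98, SE 0.348).

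Single genes showed on or off differences between libraries of 1 group. Of 12301 genes with a mean of at least 5 CPM, nintedanib replicate 2 was above the other 3 libraries by more than 1 log2 unit for 126 and below them for 180. The same counts were 29 and 66 for nintedanib replicate 1, 45 and 51 for OHSS replicate 1 and 134 and 99 for OHSS replicate 2, so OHSS replicate 2 was close to nintedanib replicate 2 in the first count. Kctd12, a subunit of GABA-B receptors, had 0 CPM in nintedanib replicate 2 against 59.5 CPM in replicate 1, and 0 CPM in COH replicate 2 as well. Bpifb4 and Pianp were at 0.156 and 0.436 CPM in nintedanib replicate 2 and between 26.8 and 54.9 CPM in the other 3 libraries. H2-Q10, a secreted class I molecule, and Gbp2b, a guanylate-binding protein, stood at 56.1 and 78.4 CPM in nintedanib replicate 2 and at most at 0.997 and 3.22 CPM in the other 3 libraries. H1fx, a linker histone, and Usp50 had 0 and 0.0347 CPM in nintedanib replicate 1 and between 8.23 and 35.3 CPM in the other 3. The genes named in this paragraph were not checked for near copies or overlapping genes, so their levels are uncertain.

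Rps2 and Rpl26, ribosomal protein genes with many near copies, stood apart in nintedanib replicate 2 while their families did not. Rps2 had 24.6 and 22.2 CPM in OHSS and 21.8 and 438 CPM with nintedanib. Its 20 tested copies summed to 1058 and 831 CPM in OHSS and 929 and 525 CPM with nintedanib, and gene and copies together to 1082 and 853 CPM in OHSS and 951 and 963 CPM with nintedanib. Rpl26 had 38.7 and 33.9 against 41.7 and 307 CPM, and with its 3 copies 386 and 319 CPM in OHSS against 383 and 315 CPM with nintedanib. As for Rpsa, the member that holds the counts differed between libraries by more than the family sum did. Cytosolic ribosomal protein genes as a list had 67 of 76 higher means with a median of 0.15. OHSS replicate 2 was lowest for 70 of 76 (28.1% of all genes), and the median was 0.03 without it.

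Further genes were called by DESeq2 and not by edgeR. Ctgf, a matrix protein induced by YAP, stood at 59.5 and 57.1 CPM in OHSS, 96.8 and 157 CPM with nintedanib and 39.8 and 39.3 CPM in COH (1.12, SE 0.233, and 0.73 without nintedanib replicate 2), while the YAP target list had a median of 0.05 over 10 genes. Ace, which makes angiotensin II, had 22.2 and 25 against 39.9 and 44.9 CPM (0.84, SE 0.138), in a renin angiotensin list with 4 of 9 higher. Wt1, a transcription factor of the ovarian surface and of granulosa cells, had 61.8 and 67 CPM in OHSS, 40.9 and 34.7 CPM with nintedanib and 38.2 and 31.9 CPM in COH (-0.77, SE 0.147). In all 3 genes both nintedanib libraries lay on 1 side of both OHSS libraries (36.2% of all genes), a pattern that picking called genes favours.

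Circadian clock genes had lower means for 12 of 15, a median of -0.21 and medians of -0.27 and -0.28 in the nintedanib libraries over the OHSS mean. The median lay between -0.34 and -0.12 with each library left out. Of the 15, 5 genes were wholly below OHSS (16.9% of all genes) and 1 was lower at an unadjusted p under 0.05 in edgeR (3.47%). Dbp, a clock output gene, was that gene, at 56.9 and 116 CPM in OHSS and 40.9 and 46.2 CPM with nintedanib (-0.99, SE 0.384, and -0.38 without OHSS replicate 2).

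Further lists had medians near that of all genes. Extracellular matrix genes had 10 of 18 higher and a median of 0.05, with Fn1, fibronectin, at 0.45 (SE 0.147) and Postn, periostin, at -1.03 (SE 0.385, and -0.59 without nintedanib replicate 1). Hypoxia and glycolysis genes had a median of 0.09 over 15 genes, with Egln3, an oxygen sensor, at 18.1 and 10.7 CPM in OHSS and 7.98 and 3.77 CPM with nintedanib (-1.30, SE 0.435). Xenobiotic and NRF2 response genes had a median of -0.05 over 14 genes, and 0.27 without OHSS replicate 1, with Gclm, of glutathione synthesis, at 15.6 and 16.2 CPM in OHSS and 50.4 and 57 CPM with nintedanib. Inflammatory cytokine and adhesion genes had a median of 0.07 over 14 genes, with Cxcl1, a neutrophil chemokine, at 9.03 and 13.2 against 1.08 and 3.12 CPM.

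Markers of tissue beside the ovary were uneven between libraries. Adipocyte markers had 7 of 7 lower, with summed levels of 350.1 and 809 CPM in OHSS and 379 and 269.8 CPM with nintedanib, so that OHSS replicate 2 was the high library, and without it 4 of 7 were higher. Oviduct epithelium markers summed to 9.2 and 10.1 CPM in OHSS and 5.38 and 10.7 CPM with nintedanib, and skeletal muscle markers to 2.83 and 3.63 against 1.98 and 1.99 CPM. Erythroid markers summed to 60.4 and 173 CPM in OHSS and 156 and 84 CPM with nintedanib. Ovarian surface markers had medians of -0.65 and 0.63 in the nintedanib libraries. Their part in the results above was not tested.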

How the data were processed

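Whole ovaries of ICR mice were profiled by RNA sequencing in 6 libraries, 2 in each group of OHSS, OHSS with nintedanib and COH, grouped by the sample titles. The values are raw counts per gene in 1 table that the authors deposited, and a separate deposited read summary was used only for depth. Per the submitters' processing notes, Trimmomatic 0.36, HISAT2 2.1.0 and StringTie 1.3.3b were named, with mm8 as the build, and the sources used here do not give the counter, annotation or strand setting. Counts came to between 144 and 148% of read pairs, so 2 counts were taken as 1 pair and precision covers counting error only.

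Of 51826 genes, 19027 passed edgeR's filter on low counts. R 4.3.3 was used with edgeR 4.0.16, TMM scaling and the quasi-likelihood F test (two-sided, Benjamini-Hochberg), fitted to all 6 libraries with 3 residual degrees of freedom. DESeq2 1.42.0 and limma 3.58.1 (voom), other scalings and filters, a replicate block, a fit without COH and each library left out were the alternatives. An exact permutation test of 2 against 2 cannot go below 0.333, so none was run. The fit was tested on simulated data for this comparison (19027 genes), where it called 9 of 100 genes changed by 1 log2 unit, 97 of 100 changed by 3 and 15 unchanged genes. The changed genes were drawn only from those with a mean of at least 100 counts, and the simulated spread was the one estimated from these data. Recovery of genes with fewer counts was not tested.

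Genes named by rule had a mean of at least 5 CPM, no overlap between groups and no predicted or pseudogene name, with up to 12 a direction by the largest called change and then by the smallest unadjusted p. Kinases of the drug, ligands, steroid enzymes and up to 5 members of each list with the smallest p were added, as were genes on which 1 library stood apart. Rpsa-ps10, Rpsa, Rnf26 (ENSMUSG00000111409), H2-Eb1, Ciita, Lss, Hmgcs1 and Isg15 were chosen after their values were seen. Some genes that the rule names are not reported here. The comparison and the 42 lists (601 genes tested) were chosen with earlier results of these data known. GENCODE M21 served for overlaps and near copies (at least 95% identity over at least 200 bases), and 51633 of 51826 gene IDs matched. Since that build differs from mm8, no coordinates from it are given, and RefSeq promoters are described on GRCm38.p6 alone. Of 127 gene IDs checked, 27 had a near copy and 64 an overlapping gene, and only some of these are marked as uncertain above. Gja5, Idi1 and H2-DMb1 are among those with a near copy that are not marked.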

Additional observations from a re-analysis of the deposited data

How the results depend on the processing

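The count of 1 called gene was 2 with no filter on low counts (Rpsa-ps10 and Aldh3b2), 213 with DESeq2, 0 with only the OHSS and nintedanib libraries and from 0 to 30 with each library left out. It was 30 without nintedanib replicate 1 (13 higher, 17 lower), 2 without nintedanib replicate 2 (Gm12191 and H1fx), 2 without OHSS replicate 1 (Rpsa-ps10 and Sh3pxd2a), and 0 without COH replicate 1 or COH replicate 2, while the unadjusted count was then 1060 and 1051. The unadjusted count ran from 1051 to 2299 with each library left out, the latter without nintedanib replicate 1, and was 1023 with only the OHSS and nintedanib libraries. The distance between the nintedanib libraries was 0.304 with no filter and 0.223 with the stricter one. The cause of these shifts was not tested.

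With the replicate number as a block edgeR called 0 genes, with 1242 at an unadjusted p under 0.05, and Rpsa-ps10 had an edgeR adjusted p of 0.230. The labels do not say whether same-numbered libraries belong together. Deviations of same-numbered OHSS and nintedanib libraries had a correlation of -0.00226 over 19027 genes. The correlation was 0.0484 for COH and nintedanib and -0.000723 for COH and OHSS. A value over all genes cannot show whether a batch was shared that acts on some genes only. Some single genes given above were alike in same-numbered libraries of different groups. Whether same-numbered libraries share a batch was not tested.

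The sign turned with 1 library left out, over the ranges of log2 fold change that follow. They were -0.39 to 0.18 for Vegfa, -0.56 to 0.052 for Pdgfrb, -0.25 to 0.16 for Fgfr1 (0.018 with library size only), -0.73 to 0.077 for Fgfr2 and -0.15 to 0.46 for Pecam1. They were -0.66 to 0.29 for Star, -0.52 to 1.23 for Cyp17a1, -0.77 to 0.10 for Lhcgr and -0.041 to 1.07 for Nlrp5. They were -0.53 to 4.68 for Rsad2, -0.82 to 3.75 for Ifit1, -0.63 to 3.20 for Isg15, -2.15 to 11.69 for Ifi213, -0.10 to 4.23 for Rps2 and -2.35 to 1.74 for H2-Eb1. Of the values of named genes under alternatives, 1959 kept their direction and side of the threshold, 47 passed it only there, 5 no longer passed it and 19 changed sign. With 2 libraries a group, a difference that 1 library holds cannot be told apart from one of the group.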
